A study of Mus musculus with 15 samples.

Results

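Inhibitory immune receptors and their phosphatases were followed in microglia, the resident macrophages of the brain, after a single dose of an antibody that binds and activates the receptor TREM2. The 10 members, out of 32372 genes in the deposited matrix, were listed by name as 6 inhibitory receptors with cytoplasmic tyrosine motifs (Lilrb4a, Lair1, Sirpa, Pilra, Siglece and Cd300a), the receptor Havcr2, the checkpoint ligand Cd274 and the tyrosine phosphatases Ptpn6 and Ptpn11. Cells were isolated with CD45 beads from cortex and hippocampus of 15 male hTfR KI mice on C57BL/6J, aged 3.5 months, and sequenced with a 3′ kit that counts molecules by UMI. All mice carried the humanized transferrin receptor, which the ATV antibodies bind to reach the brain, and the labels give no other allele. A group of 3 mice received the control antibody ATV:RSV at 10 mg/kg and was taken at day 1. The other 4 groups of 3 mice received ATV:4D9, which carries the TREM2 antibody 4D9, at 10 mg/kg and were taken at day 1, day 7, day 14 or day 28. The only control group was that of day 1, so for the later days the time since dosing and the antibody cannot be told apart.

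Inhibitory receptors of this kind carry immunoreceptor tyrosine-based inhibitory motifs (ITIMs). When a ligand is bound, Src-family kinases phosphorylate the motif, the phosphatases SHP-1 (Ptpn6) and SHP-2 (Ptpn11) or the lipid phosphatase SHIP1 (Inpp5d) dock there, and signalling from activating receptors is damped. TREM2 is such an activating receptor: it signals through the adaptor DAP12 (Tyrobp), which bears an activating motif, and the kinase Syk. In the brain, SIRPα on microglia reads the "do not eat me" signal CD47 on neurons, and Siglec-E reads sialic acids of the glycocalyx.

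The files held 102043 cells and 32341960 to 70307384 UMIs per mouse. Median UMIs per cell were 8201.5 to 8995.5 in the 3 mice of ATV:4D9 day 1 and 4694 to 6117 in the other 12. The median mitochondrial share of a cell's UMIs was 3.96% to 4.50% in the ATV:4D9 day 1 mice, 3.49% to 4.04% in the day 7 mice and 3.11% to 3.38% in the controls. The day 1 and day 7 mice thus lay above the controls, while day 14 (3.13% to 3.64%) and day 28 (3.25% to 3.62%) overlapped with them. The part of this share in the results was not tested. At least 3 of 8 microglial markers were found in 99.7% or more of cells of every group, although their summed level was 13293 to 14958 CPM (UMI counts scaled to a common library total) in ATV:4D9 day 1 against 17342 to 20559 CPM elsewhere. At least 3 markers of another cell type were found in 758 cells (0.743%), a share of 1.23% to 1.48% at day 1 and 0.474% to 0.783% in the other mice, and the members' calls at day 1 were the same genes without these cells. Cells with a UMI of the proliferation genes Mki67 or Top2a made up 19.6% to 27.4% of each mouse at day 1 and 0.169% to 0.684% elsewhere. Of 100747 cell barcodes, 1283 (1.27%) occurred in more than 1 library. Levels below are CPM of UMIs summed over all cells of a mouse and scaled by the trimmed mean of M values (TMM), and a gene was called when limma-voom gave a Benjamini-Hochberg adjusted p below 0.05 over the 14260 genes tested. All 10 members passed the filter on low counts. In summed counts, fewer cells expressing a gene and less RNA per cell cannot be told apart.

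The promoters of 3 members are shown because they moved at day 1 in opposite directions, Pilra and Cd274 up and Cd300a down. At the same day 18 of 18 interferon-response genes, listed with earlier results of these data known, rose. The windows run from 250 bases before to 50 after the annotated start (RefSeq, GRCm38.p6), and 8 of the 10 members had one. Capitals mark matches, on either strand, to the core of the interferon-stimulated response element (GAAA, any 2 bases, then GAAA) or to the PU.1 core (GAGGAAG), where PU.1 is the transcription factor that governs macrophage genes. The gamma-activated sequence TTCNNNGAA was also searched and was in none of the 8.
Pilra (chr5:137836229-137836528, minus strand): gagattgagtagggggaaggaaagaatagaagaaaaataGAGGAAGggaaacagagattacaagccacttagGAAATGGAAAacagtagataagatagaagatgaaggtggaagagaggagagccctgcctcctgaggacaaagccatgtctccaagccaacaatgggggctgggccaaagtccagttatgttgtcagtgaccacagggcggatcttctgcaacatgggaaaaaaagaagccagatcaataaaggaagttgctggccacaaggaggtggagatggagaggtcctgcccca
Cd274 (chr19:29367188-29367487, plus strand): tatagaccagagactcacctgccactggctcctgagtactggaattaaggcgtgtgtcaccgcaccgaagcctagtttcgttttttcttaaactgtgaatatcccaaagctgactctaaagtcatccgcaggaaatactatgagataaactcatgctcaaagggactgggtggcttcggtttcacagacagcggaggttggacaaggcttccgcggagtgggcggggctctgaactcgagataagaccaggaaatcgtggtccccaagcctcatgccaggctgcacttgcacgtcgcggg
Cd300a (chr11:114889791-114890090, plus strand): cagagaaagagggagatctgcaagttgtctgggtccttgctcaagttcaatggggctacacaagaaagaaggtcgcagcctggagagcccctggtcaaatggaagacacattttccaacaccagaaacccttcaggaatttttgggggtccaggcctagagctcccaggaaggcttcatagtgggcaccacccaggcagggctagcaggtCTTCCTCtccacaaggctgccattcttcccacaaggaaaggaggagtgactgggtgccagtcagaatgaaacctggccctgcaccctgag
The response element core was in the Pilra window alone among the 8, and in 3.44% of 32851 promoter windows. The PU.1 core was in the windows of Pilra, Lair1, Siglece, Havcr2 and Cd300a and in 13.6% of all windows, and the gamma-activated sequence was in 8.30%. None of the 3 patterns was in the windows of Cd274, Ptpn6 or Ptpn11, and no match overlapped another.

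The first comparison, ATV:4D9 day 1 against ATV:RSV day 1, asked what the TREM2 antibody changed 1 day after dosing. Of the 10 members, 9 passed the test, 5 higher and 4 lower, in a comparison where 69.2% of all genes tested did so (34.7% higher and 34.6% lower). Lilrb4a, Cd274 and Pilra rose most, both phosphatases rose by a smaller amount, Cd300a, Sirpa, Havcr2 and Siglece fell, and Lair1 did not pass. For all 9 the groups did not overlap, as for 71.5% of all genes, which also fixes the sign of the difference within each of the 3 batches. Those differences were 4.02 to 4.39 for Lilrb4a and -0.42 to -0.21 for Siglece. The median log2 fold change was 0.22 over the members and -0.05 over all genes tested.

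**Figure D1:**
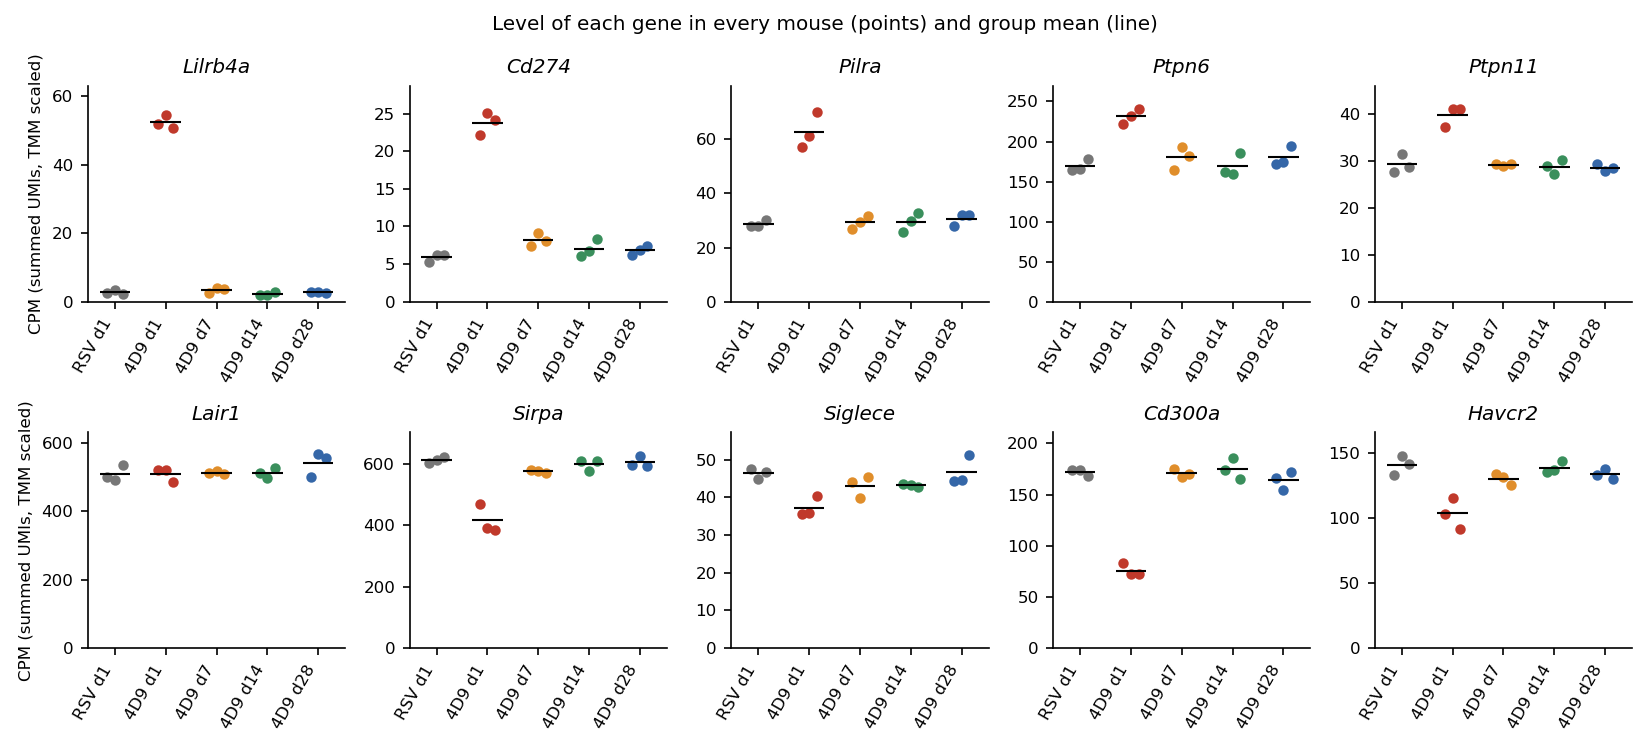
Level of each of the 10 genes (y axis, CPM of summed UMIs, TMM scaled, starting at 0) in every mouse (points) of the 5 groups (x axis, d for day), with the group mean as a line. The ATV:4D9 day 1 mice stand apart from ATV:RSV for 9 genes, with Lilrb4a at 50.9 to 54.6 CPM against 2.39 to 3.33, and for Lair1 the groups overlap.

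Lilrb4a (chr10:51490956-51496611 in GENCODE M21, build GRCm38) encodes an ITIM receptor of myeloid cells that is related to human LILRB4. It was 2.62, 3.33 and 2.39 CPM in the 3 ATV:RSV mice and 52.0, 54.6 and 50.9 CPM in the 3 ATV:4D9 day 1 mice. The spread within each group was small beside the gap between them. The log2 fold change was 4.25 (SE 0.143, adjusted p = 9.03e-13), a 19.1-fold rise with a 95% interval of 15.4 to 23.5, which was higher than that of 99.0% of the genes tested. Cells with at least 3 of 7 border-macrophage markers made up 1.02% of day 1 cells and 0.325% of control cells, the summed level of those markers was 18.0 to 26.0 CPM against 17.2 to 20.6 CPM, and none of the 7 was at 0. The summed level of 5 monocyte markers, none of them at 0, was 13.9 to 18.0 CPM at day 1 and 4.51 to 11.5 CPM in controls, without overlap, although only 2 cells of all 15 mice held at least 3 of them. T cell markers were also higher without overlap, at 0.242 to 0.501 CPM against 0.0505 to 0.237 CPM. Markers of oligodendrocytes (29.2 to 32.2 CPM against 48.1 to 65.2 CPM), neurons (4.45 to 6.04 against 8.81 to 10.9) and B cells (205 to 223 against 229 to 278) were lower without overlap. Only 24 cells of all 15 mice held at least 3 of the B cell markers, so that sum cannot be read as a number of B cells. The part of such cells or their RNA in the result was not tested beyond the cells left out next. Without the cells that held 3 markers of any other cell type the Lilrb4a difference was 4.30. Its near-identical neighbour Lilrb4b was not analysed here, and since Cell Ranger counts only reads assigned to a single gene, reads that match both would be missing from the Lilrb4a level.

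Cd274 (chr19:29367455-29388095) encodes PD-L1, the ligand of the checkpoint receptor PD-1, and its level in the ATV:RSV mice was 5.27, 6.25 and 6.18 CPM. In the ATV:4D9 day 1 mice it was 22.1, 25.1 and 24.2 CPM, so that every treated mouse lay far above every control. The rise was 2.02 on the log2 scale (SE 0.109, adjusted p = 1.74e-10), or 4.05-fold. Pilra (chr5:137821952-137836281), an ITIM receptor that binds sialylated proteins, went from 28.1, 27.9 and 30.1 CPM to 57.0, 61.3 and 70.2 CPM. That rise was 1.12 (SE 0.0928, adjusted p = 2.44e-08). Its activating paralog Pilrb1 was far lower, at 0.0627 ± 0.0510 CPM (SD, n = 3) in controls and 0.776 ± 0.144 CPM at day 1. Reads that match both genes would likewise be missing, so these levels are uncertain, as is that of Sirpa beside its Sirpb1 relatives.

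Both tyrosine phosphatases that dock on these receptors rose by about the same factor. Ptpn6 (chr6:124720707-124738714), the SHP-1 of blood cells, was 164, 165 and 178 CPM in controls and 222, 232 and 241 CPM at day 1, a difference of 0.45 (SE 0.0698, adjusted p = 2.74e-05). Ptpn11 (chr5:121130533-121191397), the broadly expressed SHP-2, was 27.8, 31.6 and 28.7 CPM in controls and 37.3, 41.1 and 41.1 CPM at day 1, a difference of 0.44 (SE 0.0584, adjusted p = 5.47e-06). Neither gene's groups overlapped in CPM. Over the alternative settings the difference was 0.21 to 0.49 for Ptpn6 and 0.20 to 0.50 for Ptpn11, and both kept their call.

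A set of 4 receptors fell. Cd300a (chr11:114890041-114904654), an ITIM receptor for phosphatidylserine and phosphatidylethanolamine, fell most, from 174, 174 and 168 CPM to 82.7, 72.4 and 72.3 CPM. The log2 fold change was -1.18 (SE 0.0599, adjusted p = 7.94e-11), a level 0.441 times that of controls, and 5.34% of genes tested lay lower. Sirpa (chr2:129592835-129632228), the receptor of CD47, was 602, 611 and 622 CPM in controls and 469, 392.1 and 385 CPM at day 1. Its difference was -0.56 (SE 0.0597, adjusted p = 4.51e-07), and the day 1 mouse of batch 1 was nearer to the controls than the other two were. Havcr2 (chr11:46454935-46481255), which encodes TIM-3, a receptor of phosphatidylserine and galectin-9 without a classical ITIM, was 133, 148 and 142 CPM in controls and 104, 116 and 91.8 CPM at day 1, a difference of -0.45 (SE 0.0677, adjusted p = 2.38e-05). Siglece (chr7:43651070-43660161) changed least, from 47.4, 44.9 and 46.8 CPM to 35.5, 35.8 and 40.4 CPM, which was -0.32 (SE 0.0668, adjusted p = 0.000462). All 4 lay below every control mouse.

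Lair1 (chr7:4003402-4063204), an ITIM receptor for collagens and complement C1q, was abundant and did not pass. Its level was 500, 491 and 535 CPM in controls and 520, 520 and 485 CPM at day 1. The log2 fold change was -0.00 with a 95% interval of -0.11 to 0.11 and an adjusted p of 0.992. Scaling by library size alone moved the median of all genes tested by -0.24, and with it Lair1 to -0.24 (adjusted p = 0.0011), while the other 9 members kept their direction and their call and the split over all genes went from 4942 higher and 4930 lower to 3690 and 6959. A change of scaling shifts every gene by about the same amount, so this shift is not particular to Lair1.

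**Figure D2:**
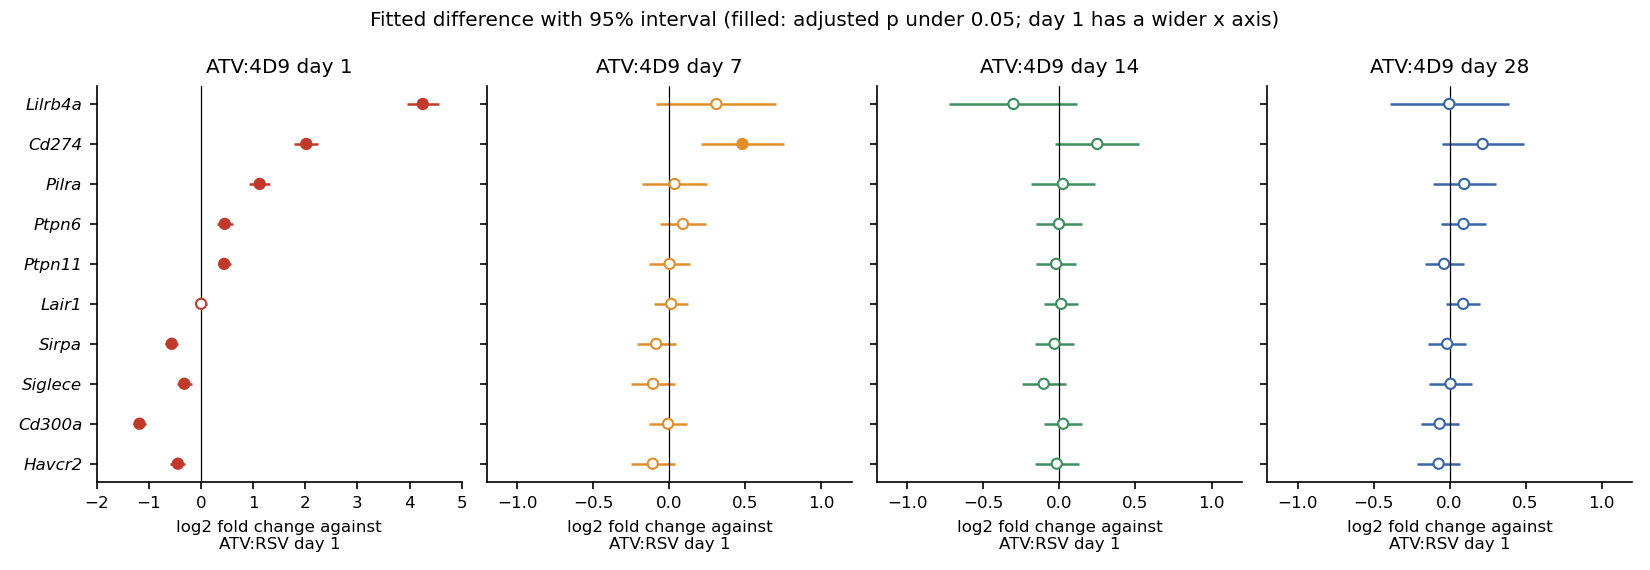
Log2 fold change of each gene (y axis) against ATV:RSV day 1 (x axis) at days 1, 7, 14 and 28 of ATV:4D9, with 95% intervals from limma-voom. Filled points passed an adjusted p of 0.05. At day 1, 9 of 10 passed, at day 7 only Cd274 (0.48), and at days 14 and 28 none, and the x axis of day 1 is wider.

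Counted per cell, part of this picture differed. Day 1 cells held more UMIs of all genes together, with medians of 8201.5 to 8995.5 a mouse against 4975 to 5750 in controls. The ratios per cell below include this difference and are not particular to a gene. Lilrb4a rose from 0.0180 to 0.439 UMIs per cell (24.4 times), Cd274 from 0.0383 to 0.199 (5.19 times) and Pilra from 0.187 to 0.523 (2.80 times), as means of 3 mice. Ptpn6 and Ptpn11 were 1.76 and 1.74 times the control level per cell. Lair1, which did not pass in CPM, was 3.78 to 4.65 UMIs per cell at day 1 and 2.99 to 3.49 in controls, without overlap, whereas with cells thinned to 1 depth it was found in 74.7% to 77.8% of day 1 cells and 79.9% to 82.2% of control cells, also without overlap. The 3 receptors with the smaller falls overlapped between groups per cell: Sirpa had 3.00 to 4.19 UMIs per cell at day 1 and 3.73 to 4.19 in controls, Havcr2 0.716 to 0.964 and 0.904 to 0.927, and Siglece 0.299 to 0.318 and 0.274 to 0.331. Cd300a alone of the 4 was lower per cell in every day 1 mouse, at 0.564 to 0.740 against 1.059 to 1.21 UMIs. These per-cell values are a description and were not tested. The share of all genes without overlap was counted for CPM only, so overlap per cell or by thinned share has no background here.

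**Figure D3:**
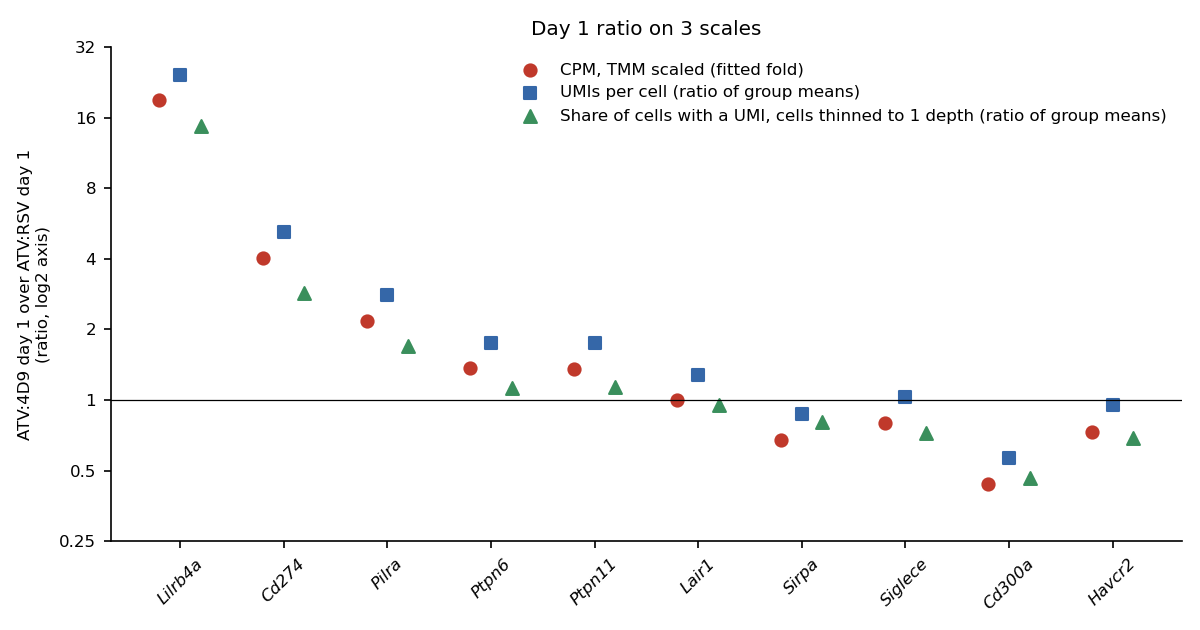
Ratio of ATV:4D9 day 1 to ATV:RSV day 1 (y axis, log2 scale) for each gene (x axis) as the fitted fold of CPM (circles), the ratio of mean UMIs per cell (squares) and the ratio of mean shares of cells with a UMI after thinning (triangles). Lilrb4a, Cd274 and Pilra lie above 1 and Cd300a below 1 on all 3 scales, while Siglece is at 1.03 per cell and 0.725 by share.

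To compare shares of cells at 1 depth, each cell was thinned to 3385 UMIs, and the 10204 shallower cells were left out, 3.93% to 5.79% of each day 1 mouse and 6.75% to 17.8% of the others. Lilrb4a was then found in 9.99% to 11.4% of day 1 cells and in 0.562% to 0.949% of control cells, and in 20.5% to 22.6% and 1.08% to 1.44% before thinning. At least 3 Lilrb4a UMIs were found in 4.32% to 5.69% of unthinned day 1 cells and in 0.0712% to 0.147% of control cells. At this depth the UMIs lay in a minority of cells. Cd274 went from 1.81% to 2.06% of thinned cells in controls to 5.37% to 6.09% at day 1 (3.42% to 3.70% and 13.4% to 14.4% unthinned), and Cd300a from 44.1% to 46.9% down to 19.3% to 23.7% (61.2% to 66.3% and 39.9% to 47.3% unthinned). Sirpa was found in 66.9% to 76.0% of thinned day 1 cells and 86.6% to 88.1% of control cells. No cell type that lacks these genes was present in numbers that could measure free RNA: 180 cells, pooled over the 5 groups, had at least 3 oligodendrocyte markers, with 3.89% holding a Lilrb4a UMI at a median of 10206.5 UMIs, but 94.4% of them held Sirpa, against 93.8% of the cells with microglial markers at a median of 5840 UMIs. The part of free RNA in the low control shares was not tested.

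Cells that held both Lilrb4a and Cd274 were then counted. In thinned cells of the 3 day 1 mice, 220 cells held both, against 116 given by the product of the 2 shares within each mouse, and the ratio was 2.32, 1.73 and 1.66 in the 3 mice. For the other 44 pairs of members, the ratio lay between 0.666 and 1.12 in every day 1 mouse. Cells of a mouse share their library, and no test was made. In the other groups few cells held both, 2 against 2.49 by the product in controls, 5 against 3.72 at day 7, 8 against 2.75 at day 14 and 2 against 3.72 at day 28. At day 14 the ratio was 5.71, 3.09 and 1.43 in the 3 mice, and whether day 1 differs from the other groups was not tested.

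The authors deposited 3 clusters of cells. In the day 1 mice 87.3% to 93.5% of cells were in cluster 2, and in the other 12 mice 1.12% to 3.23%, so that cluster and group nearly coincided at day 1. Outside ATV:4D9 day 1, Lilrb4a was 14.8 to 70.2 CPM in cluster 2 (12 mice) and 0.915 to 3.16 CPM in clusters 0 and 1, and in the day 1 mice 45.7 to 51.5 CPM in cluster 2 and 4.40 to 11.1 CPM in clusters 0 and 1. Cd274 was 9.09 to 34.6 CPM in cluster 2 and 3.51 to 8.91 CPM in the other clusters of those 12 mice. Cd300a outside day 1 was 142 to 205 CPM in cluster 2, 146 to 172 CPM in cluster 0 and 197 to 235 CPM in cluster 1, above every value of cluster 0. These levels within a cluster are CPM without TMM, and since clusters were made from the same cells, differences between clusters carry no test.

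**Figure D4:**
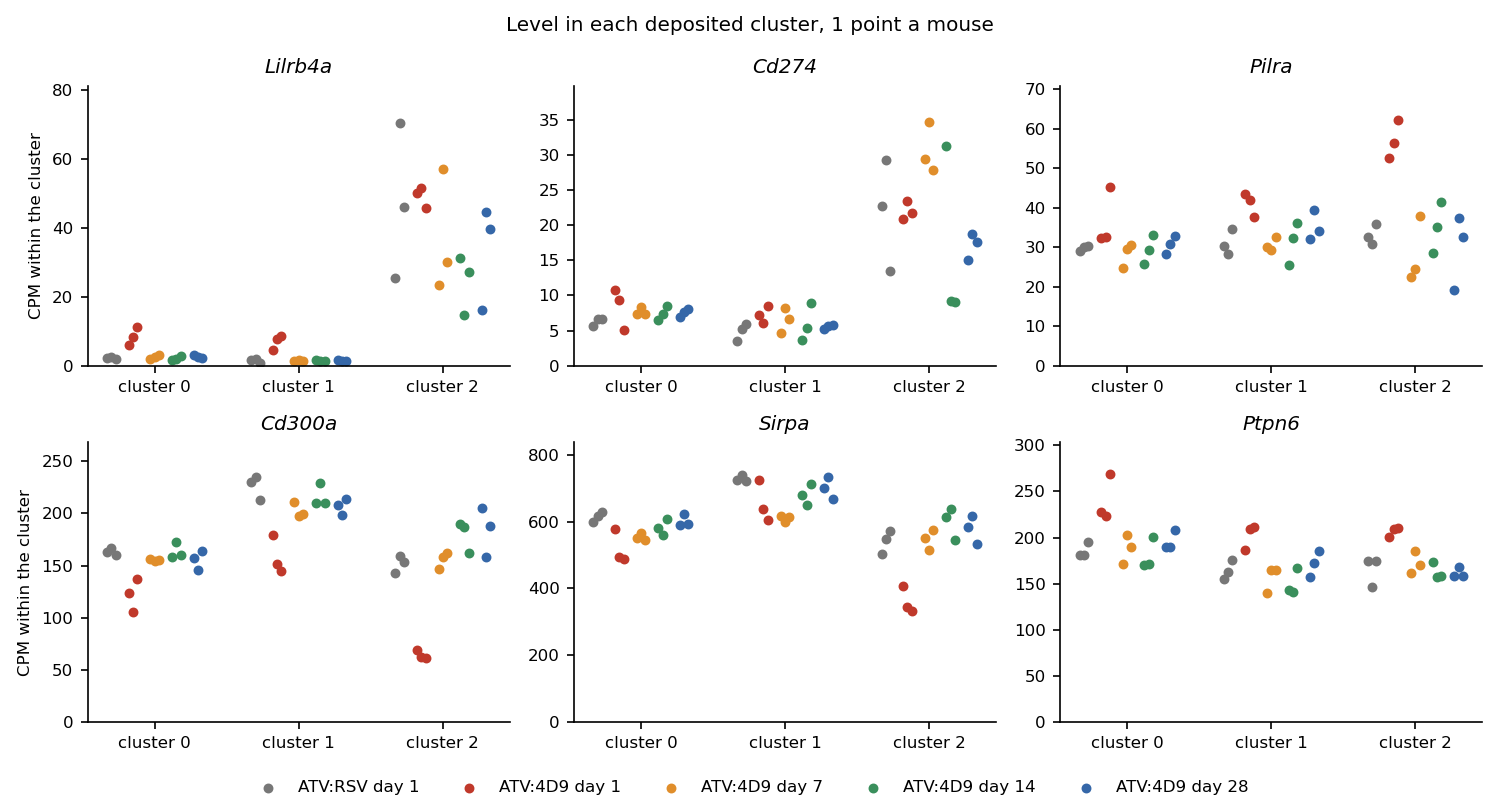
Level (y axis, CPM of UMIs summed within a cluster, starting at 0) of 6 genes in the deposited clusters 0, 1 and 2 (x axis), 1 point a mouse, coloured by group. Lilrb4a is higher in cluster 2 than in clusters 0 and 1 in all 15 mice, while Cd300a in cluster 2 is 61.1 to 69.3 CPM at day 1 and 142 CPM or more in every other mouse.

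The groups were then compared among cells of the same cluster. Within cluster 2, ATV:4D9 day 1 against ATV:RSV day 1 called 4 members, where 36.8% of 8511 genes were called. Cd300a fell by 1.15 (SE 0.0963, adjusted p = 1.85e-07) and Sirpa fell by 0.51 (SE 0.0891, adjusted p = 0.000248), while Pilra rose by 0.83 (SE 0.200, adjusted p = 0.00324) and Ptpn6 rose by 0.38 (SE 0.0741, adjusted p = 0.000649). Lilrb4a and Cd274 did not pass there, with differences of 0.43 (95% interval -0.11 to 0.98, adjusted p = 0.206) and 0.12 (95% interval -0.34 to 0.59, adjusted p = 0.692). The controls gave only 76 to 165 cells a mouse in cluster 2, against 5607 to 6597 at day 1. A miss of the threshold at that depth does not show equal levels. The clusters were made from these same cells, so cells of different groups in a cluster were placed together by their expression. Small differences within a cluster are thus in part built in, and the tests within it are conditional on that placement.

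Within cluster 0, 4 members passed where 5.09% of genes did. Lilrb4a rose by 1.90 (SE 0.347, adjusted p = 0.00349) and Ptpn6 rose by 0.36 (adjusted p = 0.0321), while Cd300a fell by 0.44 (adjusted p = 0.00907) and Havcr2 fell by 0.35 (adjusted p = 0.0388). Within cluster 1, Lilrb4a rose by 2.12 (SE 0.326, adjusted p = 0.000233) and Cd300a fell by 0.47 (SE 0.0887, adjusted p = 0.00146), where 9.18% of genes were called. The day 1 mice gave only 211 to 383 cells each in cluster 0 and 180 to 555 in cluster 1. Lilrb4a was found in 0.888% to 2.89% and in 1.25% to 3.05% of those cells after thinning. The part of free RNA, or of cells near the border of a cluster, was not tested. Cd300a was lower at day 1 in each of the 3 clusters. Siglece, lower over all cells, was called in no cluster. Its mean CPM without TMM at day 1 was 49.3, 57.7 and 32.3 in clusters 0, 1 and 2. In controls it was 47.3, 54.5 and 29.0. Ptpn11, higher over all cells, was also called in none, with means of 30.0, 31.5 and 35.9 CPM at day 1. In controls these were 32.5, 27.6 and 32.4 CPM. At days 7, 14 and 28 no member was called within any cluster, where 4.28%, 5.76% and 0.693% of genes were called at day 7 in clusters 0, 1 and 2, and 1.18% or fewer later. At an unadjusted p below 0.05 in limma there were 10 such values at the later days, 5 of them of Cd274. The share of all genes at that unadjusted threshold was not counted, so these values have no background to be judged by. No other tool was run within clusters.

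The next comparisons asked which differences from the day 1 control were present at later days. At day 7 against ATV:RSV day 1, 1 of 10 members passed, where 3.98% of genes did (2.99% higher and 0.996% lower). Cd274 was 7.44, 9.14 and 8.11 CPM, above the highest control mouse (6.25 CPM), and its log2 fold change was 0.48 (SE 0.128, 95% interval 0.21 to 0.75, adjusted p = 0.0489). No single mouse of the 6 could be dropped without losing this call (adjusted p = 0.0547 to 0.176), and over all 17 alternatives its adjusted p was 0.00431 to 0.176, past the threshold in 6. The summed level of 6 neutrophil markers was 3.42 to 157 CPM in the 3 day 7 mice and at most 10.1 CPM in every other mouse, and that of the microglial markers was 17342 to 17944 CPM at day 7 against 18873 to 20559 CPM in controls, without overlap. Without 1 of the day 7 mice the Cd274 difference was 0.42 to 0.54, and without cells that held 3 markers of any other cell type 0.46 (adjusted p = 0.0619). Sirpa, at 580, 577 and 570 CPM, lay below the 3 controls with a difference of -0.09 and an adjusted p of 0.513. Groups did not overlap for 21.2% of all genes at day 7. Lilrb4a was 2.49, 3.98 and 3.84 CPM, a difference of 0.31 with a 95% interval of -0.09 to 0.70 (adjusted p = 0.438). The other 7 members had log2 fold changes of -0.11 to 0.09. Library size alone moved the median of all genes at day 7 by -0.0950 and the split of calls from 426 higher and 142 lower to 317 and 882, and under it Cd274 did not pass.

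At day 14 no member passed (0.4% of genes did) and at day 28 none (0% of genes did), and no member had an unadjusted p below 0.05 in limma or was called by edgeR or DESeq2. Lilrb4a was 2.00, 1.88 and 2.86 CPM at day 14 and 2.70, 2.85 and 2.67 CPM at day 28. Its differences from control were -0.30 (95% interval -0.72 to 0.12) and -0.00 (95% interval -0.39 to 0.39). Cd274 was 6.05, 6.72 and 8.32 CPM at day 14 and 6.26, 6.86 and 7.38 CPM at day 28, the latter just above every control mouse. Its differences were 0.25 (95% interval -0.03 to 0.52, adjusted p = 1) and 0.22 (95% interval -0.05 to 0.49, adjusted p = 1). Groups did not overlap for 10.4% of all genes at day 14, and among members for Siglece alone, which was lower, and for 8.93% of genes at day 28. The other 8 members differed from control by -0.10 to 0.02 at day 14 and by -0.07 to 0.10 at day 28. By mean Cd274 level the order was day 1 (23.8 CPM), day 7 (8.23), day 14 (7.03), day 28 (6.83) and control (5.90). Day 7 overlapped with day 14 and day 14 with day 28, so the order of these neighbours is not settled by their ranges. Day 7 (7.44 to 9.14 CPM) did not overlap with day 28 (6.26 to 7.38 CPM). Day 28 was not tested against day 7 or day 14.

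The ATV:4D9 groups of day 7 and day 1 were also compared directly. Of 10 members, 9 passed, where 66.9% of genes did (33% higher and 33.9% lower), and each moved against its day 1 direction. Both comparisons use the same ATV:4D9 day 1 mice with opposite sign, so opposite directions are in part built in. Lilrb4a fell by 3.94 (SE 0.138, adjusted p = 1.71e-12), Cd274 fell by 1.54 (SE 0.103, adjusted p = 2.35e-09) and Pilra fell by 1.09 (SE 0.0943, adjusted p = 4.82e-08). Cd300a rose by 1.17 (SE 0.0600, adjusted p = 1.06e-10), Sirpa by 0.48 (adjusted p = 3.31e-06), Havcr2 by 0.34 (adjusted p = 0.000402) and Siglece by 0.22 (adjusted p = 0.0108). Siglece overlapped between the groups, while the other 8 did not, as for 70% of all genes, and its call was lost with thinned cells (adjusted p = 0.0694) and without day 1 replicate 1, day 1 replicate 2 or day 7 replicate 3 (adjusted p = 0.0584, 0.05004 and 0.0730). Ptpn6 fell by 0.36 (adjusted p = 0.00025) and Ptpn11 fell by 0.44 (adjusted p = 7.31e-06). From day 7 to day 14 no member passed (0.912% of genes did). Lilrb4a was the nearest, at -0.61 (SE 0.195, adjusted p = 0.266), and DESeq2 called it (adjusted p = 0.0183). Over the 5 groups in 1 F test, 9 of 10 members passed, where 66.5% of genes did, and Lair1 did not (adjusted p = 0.466). With library size alone Lair1 passed as well, both in the F test (10 of 10 members) and for day 7 against day 1 (0.16, adjusted p = 0.0202), where the median of all genes was 0.165.

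Genes of TREM2 signalling differed in direction at day 1. Trem2 itself fell by 0.14 (SE 0.0478, adjusted p = 0.0176) and its adaptor Tyrobp rose by 0.37 (SE 0.0467, adjusted p = 3.28e-06). The kinase Syk fell by 0.95 (SE 0.0903, adjusted p = 1.35e-07) and the lipid phosphatase Inpp5d fell by 0.67 (SE 0.0593, adjusted p = 5.38e-08). At day 7 the differences of these 4 genes were -0.00, 0.17, -0.04 and -0.06, and none passed. Of 24 tested genes of activating receptors and their signalling, 11 rose and 10 fell at day 1 (34.7% and 34.6% of all genes), with a median of -0.06, and with library size alone 10 rose and 13 fell. The fungal-glucan receptor Clec7a rose by 2.25 (SE 0.116) and the kinase Fgr by 2.07 (SE 0.126), and Lat2, an adaptor, by 1.32. Siglech, an activating-type Siglec of microglia, fell by 0.97, the IgG receptor Fcgr3 fell by 1.21 and Nfam1 fell by 1.39. At day 7 (3.98% of all genes called) 2 of these genes rose, 1 fell and 21 did not pass, and with library size alone 2 rose and 4 fell. Clec7a and Fgr were the 2 that rose, by 1.15 (SE 0.124, adjusted p = 2.62e-05) and 1.03 (SE 0.143, adjusted p = 0.000326), and Siglech fell by 0.23 (adjusted p = 0.00623).

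Of 19 other inhibitory receptors tested (of 24 listed), 8 rose, 10 fell and 1 did not pass at day 1, with a median of -0.59, where 69.2% of all genes were called. With library size alone 8 rose and 11 fell. Cd72, a B cell co-receptor that binds a semaphorin, rose by 4.25 (SE 0.109, adjusted p = 5.61e-14), from 5.23 ± 0.452 to 100.04 ± 6.78 CPM (SD, n = 3). Pdcd1, the receptor of the ligand that Cd274 encodes, rose by 3.40 (SE 0.292, adjusted p = 3.88e-08), from 1.06 ± 0.0854 to 11.5 ± 1.22 CPM, and Cd300lf, a relative of Cd300a, rose by 2.84 (SE 0.181, adjusted p = 1.18e-09). Pirb, the murine paired Ig-like receptor B that binds MHC class I, fell by 2.22 (SE 0.116, adjusted p = 1.16e-10), from 14.8 ± 0.901 to 3.20 ± 0.427 CPM. Ceacam1 fell by 1.90 (SE 0.150) and Siglecg fell by 1.45 (SE 0.142). At day 7 (3.98% of all genes called) 5 of 19 rose and 1 fell, with a median of 0.30, and with library size alone 5 rose and 2 fell. Lag3, a checkpoint receptor, was 269 ± 31.8 CPM in controls, 176 ± 35.5 CPM at day 1 and 567 ± 37.8 CPM at day 7, a rise of 1.08 (SE 0.110, adjusted p = 1.44e-05). Cd300lf rose by 1.27 (adjusted p = 0.0015) and Cd5 by 1.43 (adjusted p = 0.00657) at day 7, and Pecam1 fell by 0.44 (adjusted p = 0.00817).

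Of 24 other phosphatases and adaptors tested, 3 rose, 13 fell and 8 did not pass at day 1, with a median of -0.24, where 34.7% of all genes were called higher and 34.6% lower. With library size alone 2 rose and 20 fell. Ptpn22, a phosphatase that restrains Src-family kinases, fell by 2.39 (SE 0.222, adjusted p = 1.00e-07), the adaptor Dok3 fell by 1.43 (SE 0.0705, adjusted p = 5.84e-11) and Gab1, a docking partner of SHP-2, fell by 1.14 (SE 0.152, adjusted p = 5.85e-06). Dok2, another adaptor, rose by 3.95 (SE 0.388, adjusted p = 1.92e-07) and Ptpn2 rose by 0.28 (SE 0.0542, adjusted p = 0.000269). At day 7 (3.98% of genes tested were called) Dok3 alone of the 24 passed and fell by 0.49 (SE 0.0672, adjusted p = 0.000319), and with library size alone 0 rose and 4 fell.

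Of 12 tested genes of a list of ligands and counter-receptors of inhibitory or activating receptors, 6 rose, 4 fell and 2 did not pass at day 1 (34.7% of all genes higher and 34.6% lower), and with library size alone 2 rose and 6 fell. Lgals9, which encodes the Havcr2 ligand galectin-9, rose by 0.82 (SE 0.0712, adjusted p = 4.16e-08), and C1qa and C1qb, ligands of Lair1, rose by 0.37 (SE 0.0506) and 0.30 (SE 0.0559). Cd80 fell by 1.00 (SE 0.0963), Cd99l2 fell by 0.64 (SE 0.0712) and Apoe, a ligand of TREM2, fell by 0.42 (SE 0.174, adjusted p = 0.0432) with overlapping groups. Cd47, named here as the ligand of Sirpa, did not pass (-0.05, SE 0.0422, adjusted p = 0.274). At day 7 (3.98% of all genes) Apoe rose by 1.15 (SE 0.173, adjusted p = 0.000693), Cd86, a ligand of T cell co-receptors, rose by 0.31 (SE 0.0358, adjusted p = 5.37e-05), and the other 10 did not pass, while with library size alone 2 rose and 2 fell.

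Interferon-response genes and cell cycle genes were higher at day 1. Both lists were chosen with earlier results of these data known, so the counts that follow are a description. All 18 tested of each list rose (34.7% of all genes did), with medians of 3.96 and 3.68, led by Cxcl10 (5.78, SE 0.215), Rsad2 (5.37, SE 0.374) and Isg15 (4.36, SE 0.184) and by Mcm5 (5.38, SE 0.124), Mcm2 (5.24, SE 0.101) and Rrm2 (4.94, SE 0.779). With library size alone 16 interferon-response and 18 cell cycle genes rose. At day 7 (2.99% of all genes higher) 6 of 18 interferon-response genes rose and none fell, among them Ifi204 (1.54, SE 0.290), Oasl2 (1.32, SE 0.306) and Cxcl10 (1.24, SE 0.224), while 0 of 18 cell cycle genes passed, and with library size alone 5 interferon-response genes rose and 1 cell cycle gene fell. Their part in the members' changes was not tested. Without the cells that held a UMI of Mki67 or Top2a, the log2 fold changes of Lilrb4a, Cd274 and Pilra at day 1 were 4.45, 2.15 and 1.18. That of Cd300a was -1.09. Cycling cells in which neither gene was detected stay in, so this removal cannot show the part of the cell cycle.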

How the data were processed

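UMI counts per gene and cell, from 15 mice in 1 matrix, were used as deposited, with the authors' table of cells. The reads had been aligned to mm10 with Cell Ranger (4.0.0 in the submitters' processing notes), and the authors had filtered the cells (667 to 24995 UMIs in the deposited table, mitochondrial share at most 10 percent) and clustered them in Seurat on integrated data into 3 clusters. No doublet caller was run. The depth was 32341960 to 70307384 UMIs per mouse, in 5 groups of 3 mice.

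Counts were summed per mouse, filtered (filterByExpr, minimum count 10, minimum total 15), scaled by TMM (factors 0.878 to 1.064) and fitted with limma-voom in R 4.3.3 (edgeR 4.0.16, limma 3.58.1) with group means over all 15 mice. P-values were adjusted by Benjamini and Hochberg over the 14260 genes tested. Sums within a cluster were fitted likewise where a mouse had at least 50 cells of it. The scripts were run on simulated data in which few genes changed, as many up as down. That run does not reach a comparison like day 1, where most genes were called, and says nothing on the choice of scaling there. Alternatives were library size alone, RLE factors, no filter, edgeR's quasi-likelihood test, DESeq2 1.42.0, a batch block, quality weights, removal of cells with at least 3 markers of another cell type or with Mki67 or Top2a, thinning to the 10th percentile of UMIs per cell (3385), leaving out each mouse, at least 200 cells a cluster, and shares without thinning. Removal, per mouse, of the 5% deepest cells was added after seeing the data.

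The labels state that each batch held all 5 conditions, so the replicate number marks a batch. Deviations from group means correlated by 0.0539 on average over 30 same-batch pairs (-0.225 to 0.259) and by -0.0267 over 60 others.

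The members and the gene lists were chosen with earlier results of these data known. All members were named, and of each list up to 3 called genes with the highest and up to 3 with the lowest log2 fold change at day 1 and day 7 with no fewer than 10 UMIs in any mouse compared, with Trem2, Tyrobp, Syk and Inpp5d. Pilrb1, Cd47 and the day 1 level of Lag3 were added outside this rule. Gene positions are from GENCODE M21 and promoters from RefSeq (GRCm38.p6). A further control animal named in the labels and Lilrb4b were not analysed here.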

Additional observations from a re-analysis of the deposited data

Results flagged for a closer look

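The level of 9 members differed between the ATV:4D9 mice of day 7 and those of day 1 (limma-voom, adjusted p = 0.0108 or lower), in a comparison where 66.9% of all genes tested were called. With controls at day 1 alone, this is a difference between days of ATV:4D9, in which time and antibody cannot be told apart. Lilrb4a fell by 3.94, Cd274 fell by 1.54 and Pilra fell by 1.09 on the log2 scale. Ptpn11 fell by 0.44 and Ptpn6 fell by 0.36. Cd300a rose by 1.17, Sirpa by 0.48, Havcr2 by 0.34 and Siglece by 0.22. For 8 of the 9, all but Siglece, no day 7 mouse overlapped with a day 1 mouse, as for 70% of all genes tested.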

How the results depend on the processing

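At day 1 all 9 calls kept their direction and their side of the threshold under every alternative run on the sums over all cells, and 9 members passed without any 1 mouse (9 to 9). At day 7 the call of Cd274 rested on the setting: the count was 0 with library size alone (log2 fold change 0.39, adjusted p = 0.0840), with no filter (0.48, 0.0867), without cells with markers of another type (0.46, 0.0619), with thinned cells (0.49, 0.0757), without the 5% of cells with most UMIs (0.51, 0.0528) and without any 1 mouse (0 to 0). The count for day 14 against day 7 went from 0 to 1 with DESeq2 (Lilrb4a) and was 0 to 0 without any 1 mouse. The batch block changed no call, with 9 members called at day 1 and 1 at day 7 under the replicate block. Over all alternatives 915 log2 fold changes kept sign and call, 15 lost a call, 3 gained one and 87 differed in sign without a call on either side, with values near 0. The cause was not tested. Depth limits the low genes most: Lilrb4a averaged 2.25 to 3.44 CPM in controls and later groups, and its 95% interval at day 14 ran from -0.72 to 0.12. All 50 shares of cells were higher without thinning, which follows from the deeper counts. Cluster 2 could not be fitted at 200 cells per mouse.

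The values that differed in sign were these. Lair1 at day 1 was 0.0216 with RLE factors, 0.0296 with no filter, 0.0210 with DESeq2, 0.0111 with quality weights, 0.00317 without other cell types, 0.0295 without Mki67 or Top2a cells, 0.0238 with thinned cells and 0.00508 without the cells with most UMIs, and -0.0266 to 0.0362 without 1 mouse. For day 7 against day 1 it was -0.00283, -0.0238, -0.00328, -0.0205, -0.0333 and -0.00108 under RLE factors, no filter, DESeq2, no Mki67 or Top2a cells, thinning and no cells with most UMIs, and -0.0258 to 0.0221 without 1 mouse. With library size alone the values at day 7 were -0.0836 for Lair1, -0.0606 for Pilra, -0.00606 for Ptpn6 and -0.0934 for Ptpn11, at day 14 -0.0418 for Lair1, -0.0319 for Pilra and -0.0295 for Cd300a, at day 28 -0.0134 for Siglece, and for day 14 against day 7 0.0418 for Lair1, 0.0287 for Pilra and 0.0182 for Ptpn11. With thinned cells they were -0.00955 for Lair1 and -0.00413 for Ptpn11 at day 7, -0.00607 for Pilra, 0.0130 for Ptpn6 and 0.0133 for Ptpn11 at day 14, 0.172 for Lilrb4a and -0.0419 for Siglece at day 28, and 0.0176 for Lair1 and 0.0175 for Ptpn11 for day 14 against day 7. Ptpn11 at day 7 was also -0.00397 with no filter, -0.00281 with edgeR, -0.000345 with the replicate block, -0.0229 with quality weights, -0.00241 without other cell types and -0.00418 without Mki67 or Top2a cells. Ptpn6 at day 14 was 0.00175 with DESeq2 and 0.00216 without the cells with most UMIs. Lilrb4a at day 28 was 0.0480 without other cell types, 0.0357 without Mki67 or Top2a cells and 0.0389 without the cells with most UMIs. For day 14 against day 7, Siglece was -0.000373 with RLE factors and -9.98e-05 with DESeq2, and Lair1 was 0.00242 with no filter, 0.00110 without other cell types and 0.00513 without the cells with most UMIs.

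Without 1 mouse the ranges at day 7 were -0.0129 to 0.0493 for Lair1, -0.0335 to 0.0971 for Pilra, -0.0265 to 0.00662 for Cd300a and -0.0386 to 0.0547 for Ptpn11. At day 14 they were -0.0140 to 0.0482 for Lair1, -0.0616 to 0.122 for Pilra, -0.0202 to 0.0649 for Cd300a, -0.0723 to 0.0358 for Ptpn6, -0.0625 to 0.0308 for Ptpn11 and -0.0590 to 0.0188 for Havcr2. At day 28 they were -0.0960 to 0.128 for Lilrb4a, -0.0618 to 0.0441 for Siglece and -0.0762 to 0.0169 for Ptpn11. For day 14 against day 7 they were -0.0215 to 0.0201 for Lair1, -0.0965 to 0.0900 for Pilra, -0.0503 to 0.0479 for Siglece, -0.0116 to 0.0735 for Cd300a and -0.0610 to 0.0137 for Ptpn11.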
